A study of Mus musculus with 16 samples.

Results

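Abca1 and 5 other genes that move or sense cellular cholesterol (Pltp, Scarb1, Npc1, Osbp and Srebf1) were followed across mouse embryonic stem (ES) cells and liver. They were chosen by name: a probe set, the group of oligonucleotides that reports 1 transcript, was taken when the annotation of the array gave it exactly 1 gene symbol and that symbol was one of the 6. This gave 7 of the 10855 single-gene probe sets of the array, for 6 of 8252 genes, with 2 probe sets for Abca1 (94354_at and 97198_at) and 1 for each of the others.

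The RNA came from 6 groups. Livers of mice labelled Abca1 +/- (1 mutated copy of Abca1) and of +/+ mice gave 2 arrays each, and the mice were of a mixed C57BL6/J and 129/SvJ background. The ES groups had 3 arrays each: a Cdk4 +/- line and the +/+ line E14 labelled as its control, and an Abca1 +/- line and its +/+ parental line ESVJ. The Cdk4 +/- and E14 cells were feeder-independent. The Abca1 +/- and ESVJ cells grew on irradiated mouse embryonic fibroblasts, which were removed before about 2 days on gelatin, and their RNA was taken in a different way (Trizol before RNeasy) from that of the other groups (RNeasy alone). Each mutant is 1 named line, nothing in the labels gives the sex or age of the mice or the kind of mutation, and the labels do not say that arrays of 1 group came from separate cultures, so the p-values below measure only the spread between these samples, which may be technical.

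Cells cannot break down the sterol ring and so balance cholesterol by uptake, synthesis, movement between membranes and export. Abca1 is the membrane transporter that hands phospholipid and cholesterol to lipid-poor apolipoprotein A-I, the first step in making high-density lipoprotein (HDL), and people who lack it (Tangier disease) have almost no HDL. Oxysterols formed when cholesterol is abundant activate the nuclear receptors LXR, which raise transcription of Abca1, Pltp and Srebf1. Liver is a main site of HDL formation and also takes HDL cholesterol back up through Scarb1.

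The values are MAS5 signals, a brightness per probe set, rescaled to a common trimmed mean of 500 per array. A difference is given as log2(signal + 32), or as the corresponding fold, and passed where limma's adjusted p (Benjamini-Hochberg over all probe sets tested) was under 0.05. Signals of different probe sets were not compared with each other. The labelled tissues carried their markers: the summed signal of 8 hepatocyte genes was 153880 to 191050 in livers and 277 to 539 in ES cells, and that of 10 ES cell genes was 571 to 832 in livers and 33921 to 64406 in ES cells. No marker probe set was listed at 0 in any array.

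One array stood apart. In replicate 1 of the livers labelled Abca1 +/-, the 3′ probe set of the RNA control GAPDH was 4.10 times as bright as the 5′ one and that of beta-actin 8.23 times, whereas the ratios were 0.801 to 1.19 and 1.04 to 2.14 in the other 15 arrays. Its median signal was 165, against 126 to 132 in the other 3 livers. The values of the 7 probe sets in the comparisons that use it, and of the other genes named in the liver comparison, are given with and without it.

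**Figure D1:**
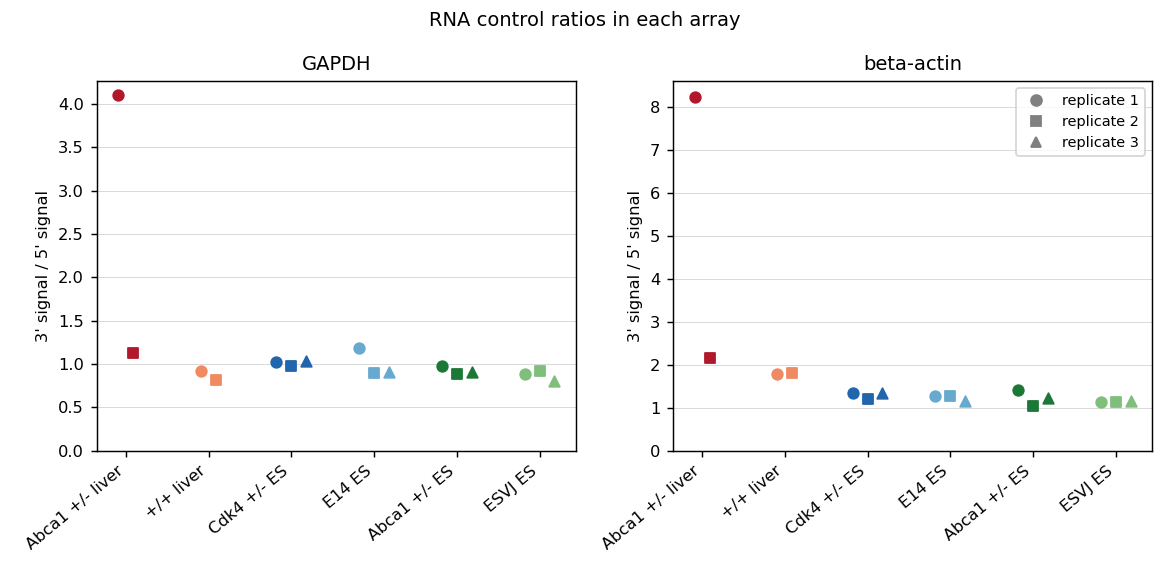
Ratio of the 3′ to the 5′ probe set signal of GAPDH (left) and beta-actin (right) on the vertical axes for each of the 16 arrays, with 1 point per array and the groups along the horizontal axes. Replicate 1 of the Abca1 +/- livers lies at 4.10 and 8.23, and every other array lies at or below 2.14.

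The mutated gene was examined first. Abca1 probe set 94354_at gave 699 and 555 in Abca1 +/- livers, against 327 and 301 in +/+ livers. In ES cells it gave 316, 245 and 335 in Cdk4 +/- cells and 202, 247 and 207 in E14 cells, and 94.0, 115 and 123 in Abca1 +/- cells, against 178, 144 and 102 in ESVJ cells. The livers labelled Abca1 +/- were the brightest group and the Abca1 +/- ES cells the dimmest, although both carry the same genotype label. In order of their means the groups ran from Abca1 +/- ES through ESVJ, E14, Cdk4 +/- and +/+ liver to Abca1 +/- liver. The ranges of neighbours in this order overlapped except between ESVJ and E14, and between the 2 liver groups.

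The other Abca1 probe set, 97198_at, was dim in most arrays. It gave 41.5 and 161 in Abca1 +/- livers, against 295 and 140.3 in +/+ livers. In ES cells its means were 102 ± 28.8 in Cdk4 +/-, 29.7 ± 17.4 in E14, 96.6 ± 33.3 in Abca1 +/- and 110.2 ± 17.4 in ESVJ cells (SD, n = 3 each). It fell below the mean signal of 100 required for testing in the fit of the 4 ES groups. The array with the highest 94354_at signal, replicate 1 of the Abca1 +/- livers, had the lowest 97198_at signal of the 4 livers. Between Abca1 +/- and +/+ livers the probe sets differed in direction, 0.92 ± 0.33 for 94354_at and -0.996 ± 0.557 for 97198_at (log2 ± SE). Over the 16 arrays their log2 signals had a Pearson correlation of 0.021, a description with no test, since the arrays share groups and scaling. The labels do not say where either probe set lies relative to the mutation, so neither checks the genotype labels.

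**Figure D2:**
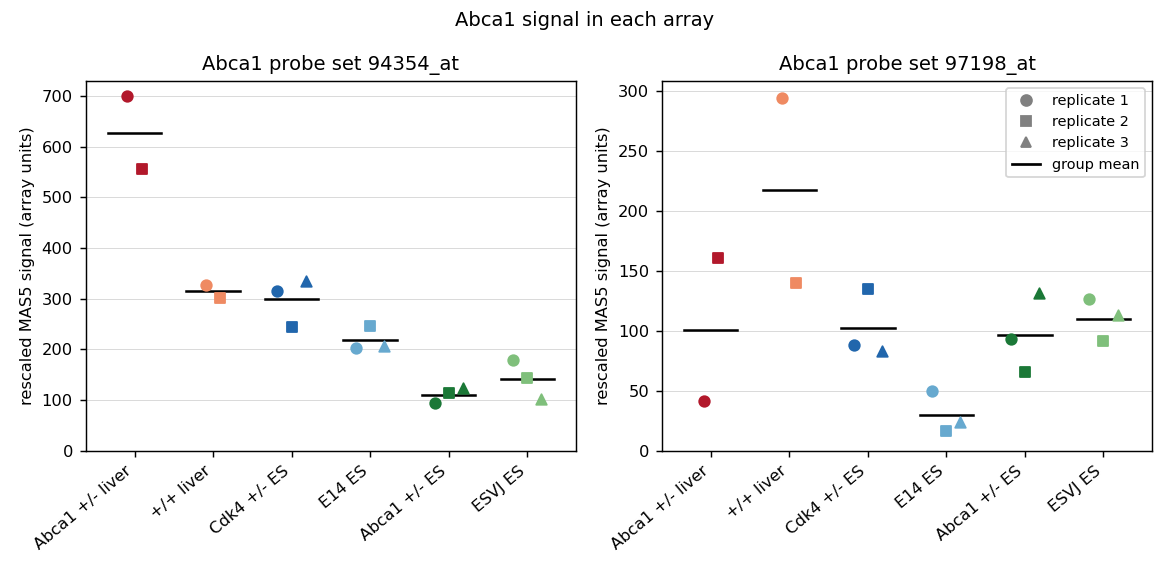
Rescaled signal of Abca1 probe sets 94354_at (left) and 97198_at (right) on linear vertical axes that start at 0, for each array of the 6 groups; points are arrays and black lines are group means. On the left both Abca1 +/- livers, at 699 and 555, lie above all other arrays, and on the right the brightest array is a +/+ liver at 295.

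Abca1 and Srebf1 are both known LXR targets, so the 300 bases around a start site of each (250 before and 50 after) are shown. Abca1 94354_at and Srebf1 passed the test in the same 4 of 8 comparisons, those of lines and of tissues. There 40.5% to 67.4% of all probe sets passed, against 0.014% to 4.91% in the other 4, so this count does not set the 2 genes apart. Srebf1 encodes the transcription factor SREBP-1, which drives fatty acid synthesis, and its shorter form SREBP-1c is the LXR-responsive one in liver. RefSeq start-site windows of GRCm38.p6 were used for 4 of the 6 genes, 6 windows in all. No window of Scarb1 or Npc1 was used, so the motif results below say nothing about these genes. Capitals mark exact matches to 3 motifs on either strand. They are GGTTACT, an LXR half-site, which in both windows lies on the other strand and so is printed as its reverse complement. In the Abca1 window they are also CACGTG, an E-box. The last match there is TATAAA, known as the TATA box. The Abca1 window lies at chr4:53159846-53160145 and the Srebf1 window at chr11:60210422-60210721, both on the minus strand.
Abca1: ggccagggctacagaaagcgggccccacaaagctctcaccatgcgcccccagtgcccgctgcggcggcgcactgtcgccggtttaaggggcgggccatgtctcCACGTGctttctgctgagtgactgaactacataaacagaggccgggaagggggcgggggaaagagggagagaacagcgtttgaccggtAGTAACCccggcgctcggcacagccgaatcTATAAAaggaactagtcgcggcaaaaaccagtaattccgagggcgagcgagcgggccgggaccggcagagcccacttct
Srebf1: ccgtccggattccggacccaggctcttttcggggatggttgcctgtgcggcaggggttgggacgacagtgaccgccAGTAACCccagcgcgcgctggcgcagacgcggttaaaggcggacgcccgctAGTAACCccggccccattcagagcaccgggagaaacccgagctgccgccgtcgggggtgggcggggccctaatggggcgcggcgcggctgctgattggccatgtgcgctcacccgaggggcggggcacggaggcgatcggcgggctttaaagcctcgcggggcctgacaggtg
The half-site letters began 59 bases before the Abca1 start, and 174 and 123 bases before the Srebf1 start. They occur in 2.253% of 32851 mouse windows, CACGTG in 7.15% and TATAAA in 13.62%, and the windows of Pltp and Osbp and the other 2 of Srebf1 held no half-site. Abca1 and Srebf1 share a run of 13 bases around the half-site, tagtaaccccggc, which is in 2 of the 32851 windows. These are the 2 windows shown, and the run was picked as the longest they share, so its rarity shows no link between them. How often any 2 windows share a run of this length was not tested. Both other motifs searched were short: CCAAT (the NF-Y box, in 37.41% of windows) occurred 5 times in the Osbp window, once in each of the Pltp window and 2 of the 3 Srebf1 windows (30 bases before the start in the one shown) and not in that of Abca1, and CACNCCA (the core of the sterol regulatory element, 18.43%) occurred in none of the 6. These are matches of letters within the windows and do not show binding.

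Pltp encodes phospholipid transfer protein, which remodels HDL in plasma. Its signal was 795 and 570.0 in Abca1 +/- livers, against 264 and 309 in +/+ livers. In ES cells it was 788, 656 and 842 in Cdk4 +/- and 807, 1119.7 and 1109 in E14 cells, and 601, 622 and 724 in Abca1 +/-, against 640.4, 499 and 585 in ESVJ cells. The +/+ livers were the only group that overlapped with no other, below all 14 other arrays.

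Scarb1, the HDL receptor SR-BI, had a signal of 4509.5 and 4259 in Abca1 +/- livers, against 4171 and 3248 in +/+ livers. All 12 ES arrays were far lower, at 539, 539.9 and 646 in Cdk4 +/-, 788, 780.3 and 663 in E14, 387, 520.4 and 516 in Abca1 +/- and 536, 429 and 506 in ESVJ cells. Among ES cells the E14 arrays lay above all others.

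Npc1 carries cholesterol out of lysosomes, and its loss causes Niemann-Pick type C disease. Its signal was 1767 and 1539.5 in Abca1 +/- livers, against 549 and 680.5 in +/+ livers. ES cells varied little, with means of 554 ± 2.58 in Cdk4 +/-, 471 ± 40.6 in E14, 515 ± 21.3 in Abca1 +/- and 486 ± 38.9 in ESVJ cells (SD, n = 3 each). The livers labelled Abca1 +/- stood above all 14 other arrays.

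Osbp, oxysterol-binding protein, exchanges cholesterol for a phosphoinositide between endoplasmic reticulum and Golgi. Its signal was 920.4 and 595 in Abca1 +/- livers, against 677 and 422 in +/+ livers. The ES means were 628 ± 71.7 in Cdk4 +/-, 556.5 ± 83.2 in E14, 489 ± 56.4 in Abca1 +/- and 533 ± 53.9 in ESVJ cells (SD, n = 3 each). Each group overlapped with its neighbour in the order of means, so Osbp set no 2 neighbouring groups apart.

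Srebf1 had a signal of 6946 and 3592 in Abca1 +/- livers, against 2449 and 1827 in +/+ livers. In ES cells it was 1138, 1157 and 1095.5 in Cdk4 +/- and 1625, 1504.5 and 1169.9 in E14 cells, and 884, 845 and 770.5 in Abca1 +/-, against 919.5, 914 and 909.8 in ESVJ cells. No 2 neighbours overlapped in the order Abca1 +/- ES, ESVJ, Cdk4 +/-, E14, +/+ liver and Abca1 +/- liver, although the lowest E14 array was close to the highest Cdk4 +/- array.

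**Figure D3:**
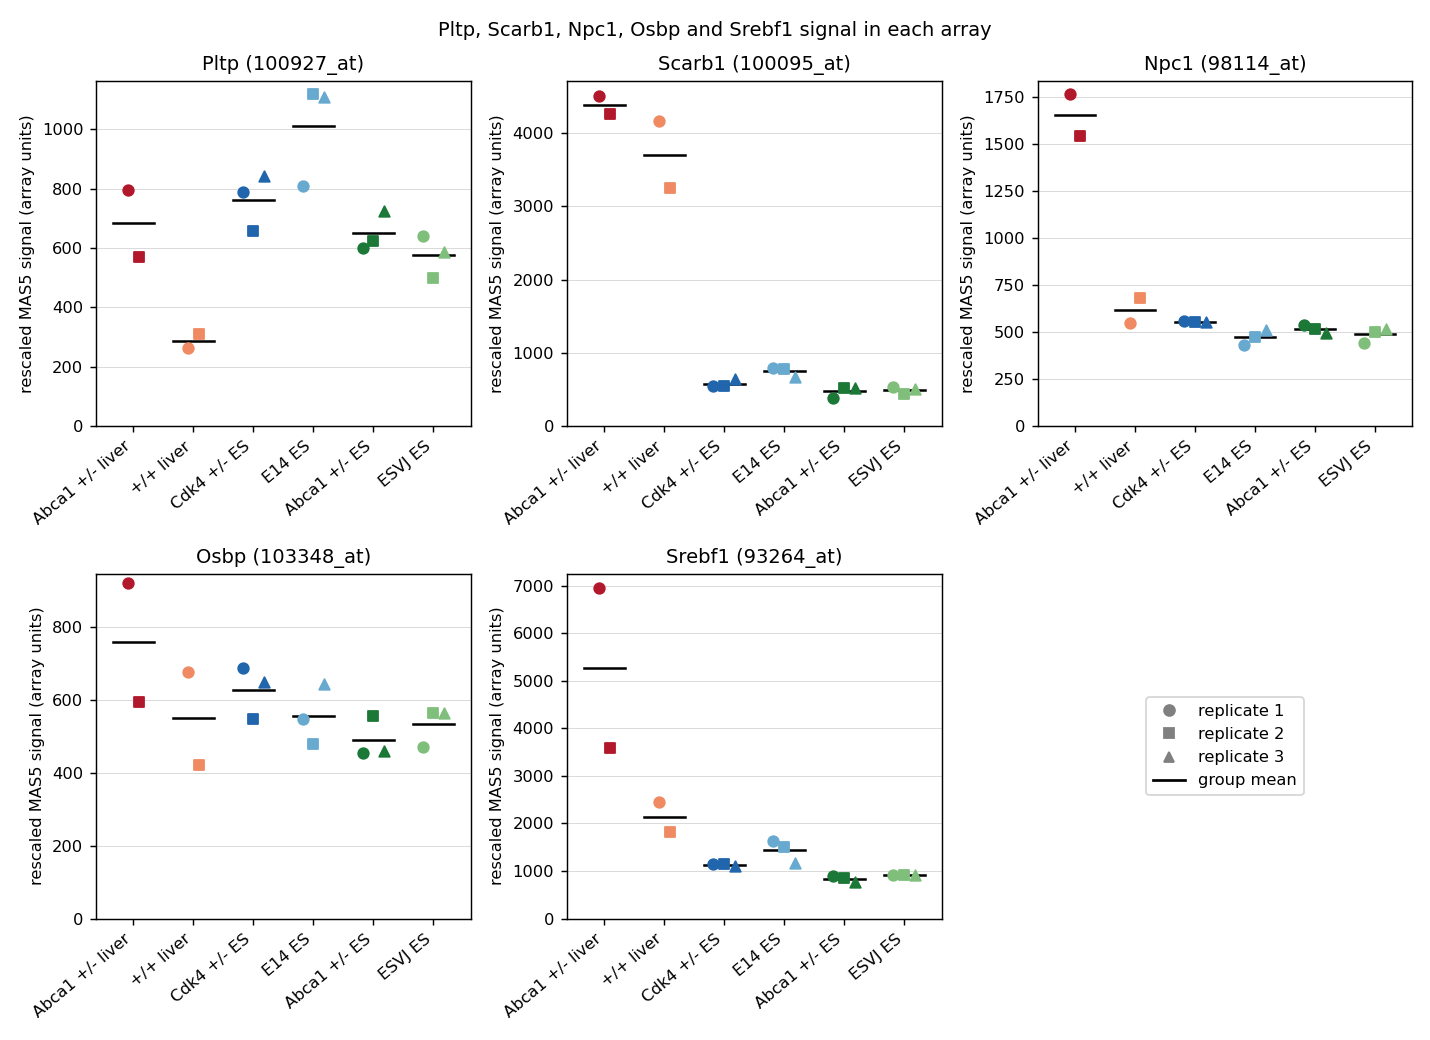
Rescaled signal of Pltp, Scarb1, Npc1, Osbp and Srebf1 on linear vertical axes that start at 0, for each array of the 6 groups; points are arrays and black lines are group means. Scarb1 separates the 4 livers (3248 to 4509.5) from the ES cells, while for Npc1 the Abca1 +/- livers alone lie high, at 1767 and 1539.5.

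Livers labelled Abca1 +/- were then compared with +/+ livers. The mice were of a mixed background and their sex and age are not given. Differences between animals thus cannot be told apart from genotype here. Npc1 was 2.61-fold as high in Abca1 +/- as in +/+ livers (95% interval 1.56 to 4.37), Srebf1 2.34-fold (1.27 to 4.32), Pltp 2.22-fold (1.31 to 3.77) and Abca1 94354_at 1.89-fold (1.14 to 3.16). Osbp at 1.36-fold (0.759 to 2.44) and Scarb1 at 1.19-fold (0.713 to 1.98) had intervals on both sides of 1, as did Abca1 97198_at at 0.501-fold (0.212 to 1.19). None of the 7 probe sets passed, with adjusted p between 0.114 for Npc1 and 0.742 for Scarb1 by limma. Over all 7160 probe sets 0.014% passed, 1 probe set, while 1321 had an unadjusted p under 0.05, as did 4 of the 7. The groups did not overlap for 5 of the 7, beside 51.7% of all probe sets, and the median log2 difference was 0.92 for the 7 and 0.11 for all.

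Without replicate 1, whose RNA control ratios were high, Npc1 was 2.44-fold as high, Pltp 1.90-fold, Abca1 94354_at 1.70-fold and Srebf1 1.69-fold. Osbp was then 1.10-fold and Scarb1 1.16-fold as high, and Abca1 97198_at moved to 0.812-fold. Again 0 of 7 passed, with 9 of all 6904 probe sets passing. With replicate 1 as the only Abca1 +/- liver, 5 of 7 passed (Srebf1 at 3.25-fold, Npc1 at 2.80-fold, Pltp at 2.60-fold and Abca1 94354_at at 2.11-fold higher, and Abca1 97198_at at 0.310-fold, lower), beside 22.8% of all. In both cases the lone liver was assumed to vary like the +/+ livers. When the spread was estimated from all 16 arrays, 4 of 7 passed (Npc1, Pltp, Srebf1 and Abca1 94354_at), beside 1970 of all 7841 probe sets. An exact permutation test of 2 against 2 arrays cannot go below 0.33, which it gave for Abca1 94354_at, and it gave 0.67 for 97198_at (two-sided).

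Markers of other liver cells were measured in the same arrays. The summed signal of 10 macrophage and Kupffer cell genes was 11885 and 7611 in Abca1 +/- livers, against 5968 and 7402 in +/+ livers. The 11885 came from replicate 1, whose RNA control ratios were high. Lyz2 and C1qb averaged lower in Abca1 +/- livers (980 against 1314 and 351 against 369), and the other genes of the list higher. The summed signal of 6 of 7 endothelial genes was 1529 and 1414 in Abca1 +/- livers, against 777 and 1060.4 in +/+ livers. Macrophages express Abca1, Npc1 and Pltp. None of these marker genes passed, none was listed at 0, and their part in the differences above was not tested. In bulk RNA, a change in the number of cells of a type and a change in RNA per cell cannot be told apart.

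Of the other genes of sterol handling, 0 of 3 efflux transporters, 5 uptake genes, 12 genes of intracellular movement, 10 of lipoprotein remodelling, 7 sensors, 16 of cholesterol synthesis, 10 of fatty acid synthesis, 7 LXR targets and 7 of bile acid synthesis passed in liver. Apob, the structural protein of very low-density lipoprotein, averaged 4152 ± 570 in Abca1 +/- livers and 752 ± 52.5 in +/+ livers (SD, n = 2 each; log2 difference 2.41 ± 0.33, adjusted p = 0.0984 by limma). Lpcat3, an LXR target that remodels phospholipids, averaged 719 ± 223 and Hmgcs1, an early enzyme of cholesterol synthesis, 2315 ± 865 in Abca1 +/- livers. In +/+ livers Lpcat3 averaged 250.1 ± 50.7 and Hmgcs1 851 ± 66.5, and their adjusted p were 0.123 and 0.129 (limma). Nr1h3, which encodes LXRα, went the other way with 2041 ± 543 in Abca1 +/- livers and 3482 ± 652 in +/+ livers (adjusted p = 0.277 by limma). Without replicate 1 of the Abca1 +/- livers, Apob passed at 4.83-fold (adjusted p = 0.0332 by limma). Hmgcs1 was then 3.36-fold, Lpcat3 2.12-fold and Nr1h3 0.705-fold as high in Abca1 +/- livers, with adjusted p of 0.0573, 0.163 and 0.503 (limma). With replicate 1 as the only Abca1 +/- liver all 4 passed, at 5.86-fold for Apob, 3.25-fold for Lpcat3, 1.97-fold for Hmgcs1 and 0.485-fold for Nr1h3.

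In ES cells, 0 of the 6 tested probe sets passed between Abca1 +/- and ESVJ cells, beside 0.0272% of all 7349 probe sets (2 probe sets, with 241 at an unadjusted p under 0.05). Abca1 94354_at was 0.833-fold as high in Abca1 +/- cells, with a 95% interval of 0.621 to 1.12. The exact permutation p was 0.3 for 94354_at and 0.7 for 97198_at (two-sided, 3 against 3 arrays, smallest possible 0.1). The other 5 lay between 0.913-fold (Srebf1) and 1.12-fold (Pltp), and all 5 intervals lay between 0.741-fold and 1.41-fold. Srebf1 was the only one whose groups did not overlap, at 7.93% of all probe sets. All 9 sterol lists also had 0 genes passing.

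The difference between Abca1 +/- and +/+ samples, called the Abca1 effect below, was next compared between the tissues. It was taken as the difference in liver minus the difference in ES cells. Npc1 passed, at 1.31 ± 0.26 on the log2 scale (limma, adjusted p = 0.0334), beside 2.38% of all 7883 probe sets, 2.02% higher and 0.368% lower. Its log2 difference was 1.39 in liver and 0.08 in ES cells. Without replicate 1 of the Abca1 +/- livers it was 1.21 (adjusted p = 0.0490 by limma), but the call was lost without any of 7 other arrays and with quantile normalization (1.04, adjusted p = 0.0760). Srebf1 (1.36, adjusted p = 0.0612), Abca1 94354_at (1.19, 0.0852) and Pltp (0.98, 0.0901) did not pass in limma's test. Without replicate 1 they were 0.89, 1.03 and 0.75, in the same order, and did not pass either. Osbp (0.56), Scarb1 (0.30) and Abca1 97198_at (-0.83) did not pass, and without replicate 1 they were 0.26, 0.26 and -0.13. With replicate 1 as the only Abca1 +/- liver 5 of 7 passed, beside 25.4% of all. Among the sterol lists Apob passed, at 2.69 (adjusted p = 0.0160 by limma). It was 1 of 9 lipoprotein remodelling genes tested, and none passed in the other lists. Apob fell below the filter in the fit of the ES groups, so it was tested here through its liver signal.

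**Figure D4:**
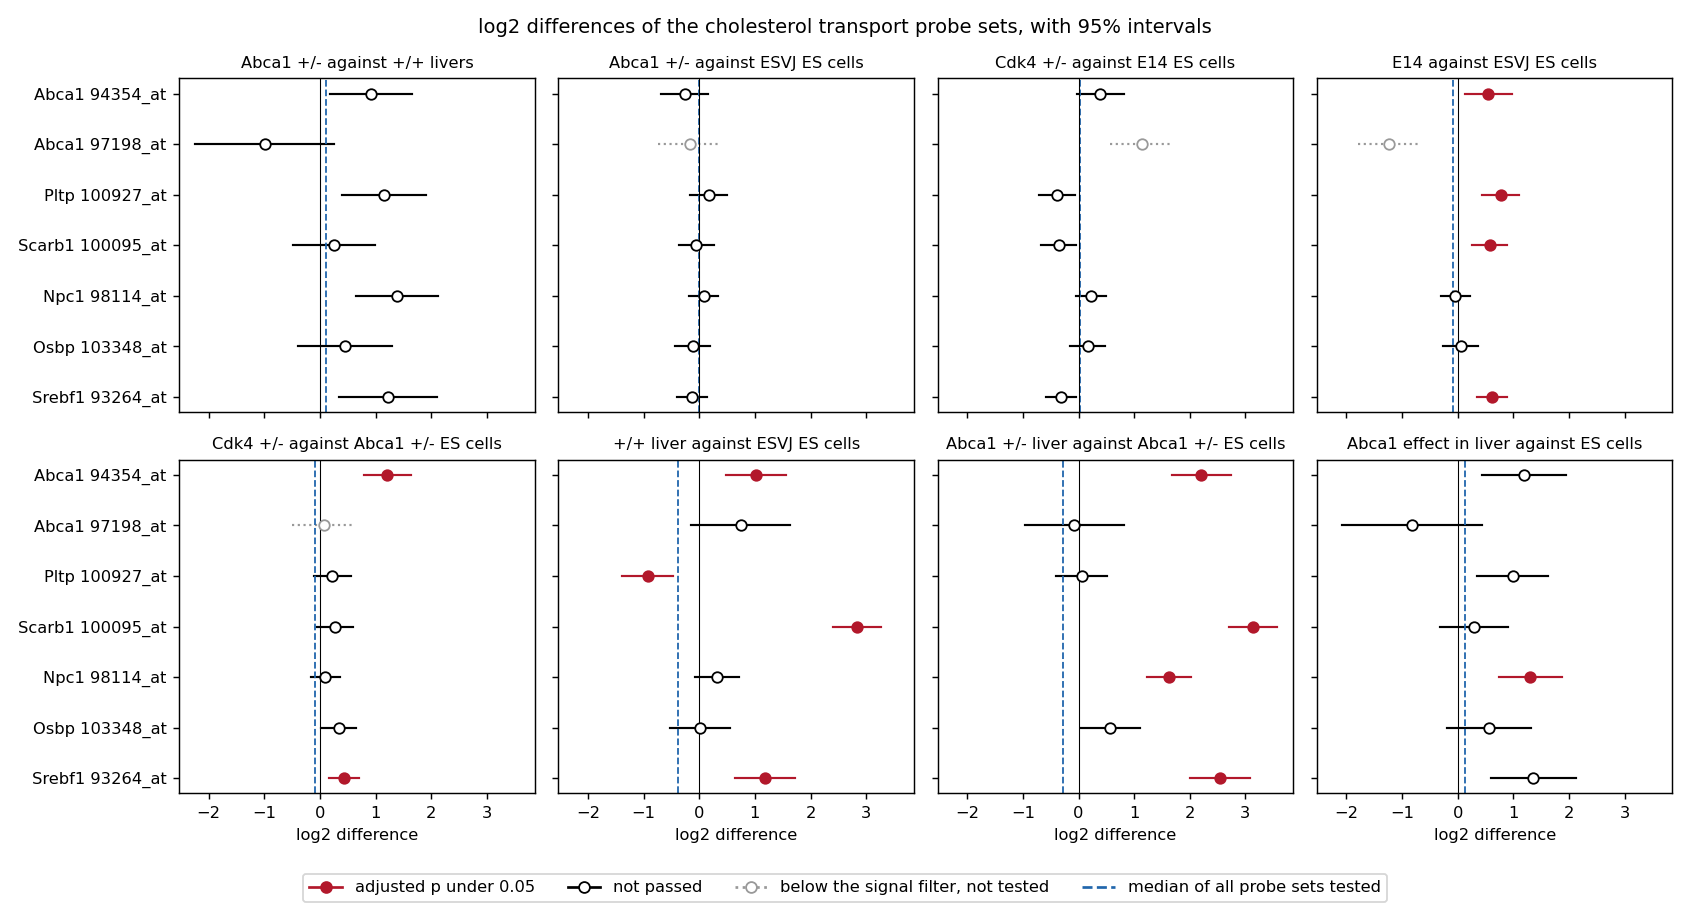
log2 difference with its 95% interval on the horizontal axes for the 7 probe sets in each of the 8 comparisons; filled red points passed, open black points did not, grey dotted ones were below the signal filter, and the dashed line is the median of all probe sets tested. The 4 comparisons of lines and of tissues hold all filled points but 1, that of Npc1 at 1.31 for the effect in liver against ES cells.

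A mutation outside the pathway gave a comparison made in the same way. Between Cdk4 +/- and E14 cells, 0 of 6 passed, beside 4.91% of all 7349 probe sets, 2.59% higher and 2.33% lower (1529 had an unadjusted p under 0.05, as did 3 of the 6). The groups did not overlap for 3 of the 6 (Scarb1, Npc1 and Srebf1), beside 24.9% of all. Pltp was 0.765-fold, Scarb1 0.782-fold, Srebf1 0.800-fold and Abca1 94354_at 1.31-fold as high in Cdk4 +/- cells, with adjusted p of 0.164 to 0.276 (limma). Srebf1 passed without replicate 3 of E14 (log2 difference -0.46, limma adjusted p = 0.0343). Abca1 97198_at, not tested because of its low signal, was 2.19-fold as high in Cdk4 +/- cells, with adjusted p = 0.0489 by limma when no filter was applied. Of the sterol lists, 1 of 15 cholesterol synthesis genes was lower and 1 of 9 fatty acid synthesis genes higher. None passed in the other lists, beside 4.91% of all probe sets. The first, Hmgcs1, fell to 1029 ± 370 in Cdk4 +/- cells, against 1871 ± 422 in E14 cells (limma, adjusted p = 0.0424). Elovl6, a fatty acid elongase under SREBP-1, rose to 1098 ± 96.8 in Cdk4 +/- cells, against 576 ± 151 in E14 cells (SD, n = 3 each; limma, adjusted p = 0.00862). The Hmgcs1 call was lost without any of 4 of the 6 arrays (highest adjusted p 0.182) and under 6 of 10 other settings, while Elovl6 kept its call under all of these.

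The ES lines differed far more between origins than between the mutant and +/+ line of 1 origin. Feeder culture and RNA isolation went with origin in every array and cannot be told apart from it. Between the +/+ lines, E14 was higher than ESVJ for 4 of 6 probe sets and lower for 0, beside 42.6% of all 7349 probe sets passing, 19.8% higher and 22.8% lower. The groups did not overlap for these 4, beside 52% of all. Pltp was 1.71-fold as high in E14 (95% interval 1.36 to 2.15, adjusted p = 0.00106), Srebf1 1.53-fold (1.27 to 1.85, 0.00132), Scarb1 1.49-fold (1.19 to 1.85, 0.00658) and Abca1 94354_at 1.47-fold (1.09 to 1.96, 0.0357), by limma. The median log2 difference was 0.56 for the 6 and -0.09 for all. The Abca1 call was lost with no signal filter (adjusted p = 0.0651), with only both groups in the fit (0.0670), with the hybridisation control as a block (0.0583, log2 difference 0.42) and without any of 5 of the 6 arrays (up to 0.154, without replicate 3 of ESVJ). Its other probe set, 97198_at, was 0.426-fold as high in E14 and, with no filter, had an adjusted p of 0.00336 by limma, so the 2 Abca1 probe sets disagreed in direction.

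The mutant lines of the same origins, which share no array with the +/+ lines, were compared in the same fit. These lines also differ in the mutated gene, Cdk4 or Abca1. Origin and mutation thus cannot be told apart in this comparison. Between Cdk4 +/- and Abca1 +/- cells, 2 of 6 probe sets were higher and 0 lower, beside 40.5% of all passing, 19.4% higher and 21.1% lower. The groups did not overlap for 4 of the 6, beside 51.9% of all. Abca1 94354_at was 2.31-fold as high in Cdk4 +/- cells (95% interval 1.73 to 3.10, limma adjusted p = 2.10e-04) and kept its call without each array. The other Abca1 probe set, 97198_at, did not show this difference. It was 1.05-fold as high with overlapping groups, and was not tested because of its low signal. Srebf1 was 1.34-fold as high (1.11 to 1.62, adjusted p = 0.0144), and lost its call without replicate 3 of Abca1 +/- (adjusted p = 0.0628) and with all 16 arrays in 1 fit (0.120). Osbp at 1.27-fold, Scarb1 at 1.204-fold, Pltp at 1.16-fold and Npc1 at 1.07-fold did not pass, although Osbp passed without replicate 2 of Cdk4 +/- (log2 difference 0.43, limma adjusted p = 0.0421).

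Other genes of intracellular sterol movement were compared between the same lines. Of 13 tested, 6 were higher and 1 lower in E14 than in ESVJ, beside 42.6% of all probe sets passing. Between Cdk4 +/- and Abca1 +/- cells 4 were higher and 1 lower, beside 40.5% of all, a share near that of all probe sets. The list medians were 0.39 and 0.26 on the log2 scale, beside -0.09 for all in both comparisons. Osbpl5, a relative of Osbp, was 3.69-fold as high in E14 as in ESVJ and 2.69-fold in Cdk4 +/- as in Abca1 +/- cells. Cav1, the caveolin of cholesterol-rich membrane pits, was 2.99-fold and 4.02-fold as high in the same comparisons, and Npc2, the lysosomal partner of Npc1, 1.41-fold and 1.49-fold. Tmem97, a sterol-binding membrane protein, was lower in Cdk4 +/- cells, at 0.511-fold of the Abca1 +/- level. These 7 differences kept their call without each array.

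Of 15 cholesterol synthesis genes, 3 were lower and 0 higher in each comparison, beside 22.8% and 21.1% of all probe sets called lower, so the share called lower was near that of all. Mvk at 0.619-fold, Nsdhl at 0.657-fold and Fdps at 0.467-fold passed in E14 against ESVJ cells, and Mvd at 0.553-fold, Dhcr7 at 0.465-fold and Hmgcs1 at 0.606-fold in Cdk4 +/- against Abca1 +/- cells. Mvd alone among these 6 kept its call without each array, and it lost it with all 16 arrays in 1 fit (adjusted p = 0.0921 by limma). Of 4 LXR targets tested, 2 were higher in E14 and 1 in Cdk4 +/- cells, and 0 were lower. Over all probe sets 19.8% and 19.4% were higher. Lpcat3 was 1.48-fold and 1.52-fold as high, and it lost its call without 4 and 3 of the 6 arrays (limma adjusted p up to 0.114 and 0.103). Of 3 sensors, 1 was higher and 1 lower in E14, and 0 were higher and 1 lower in Cdk4 +/- cells. The lower one was Rxra in both (log2 difference -0.66 and -0.38). It lost its call without 4 of the 6 arrays in the second comparison only. Scd2, a stearoyl desaturase under SREBP-1, was 2.30-fold and 2.21-fold as high in the same comparisons. The 9 fatty acid synthesis genes tested did not go one way: 2 were higher and 3 lower in E14 than in ESVJ, and 1 was higher and 1 lower in Cdk4 +/- than in Abca1 +/- cells. Elovl6 at 0.554-fold, the elongase Elovl5 at 0.585-fold and Gpam, an acyltransferase of glycerolipid synthesis, at 0.645-fold were lower in E14, and Fasn, fatty acid synthase, at 0.667-fold was lower in Cdk4 +/- cells.

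Origin moved with other values. All 10 ES cell genes were lower in E14 than in ESVJ, with summed signals of 33921 to 39739 against 56516 to 64205, and 7 of 10 were lower and 1 higher in Cdk4 +/- than in Abca1 +/- cells (40648 to 46743 against 54948 to 64406). The epithelial keratin Krt19 averaged 2562 in E14 and 54.4 in ESVJ cells. The 9 feeder fibroblast genes summed to 2245 to 2382 in E14 and 2225 to 2400.1 in ESVJ cells, and of the 3 tested 1 was higher and 2 lower in E14. They summed to 2397 to 3069 in Cdk4 +/- and 2040 to 2257 in Abca1 +/- cells. Each origin holds a +/+ line and a mutant line, and feeder culture and RNA isolation went with origin in every array, so the 3 cannot be told apart, and the part of the marker differences in the results was not tested.

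**Figure D5:**
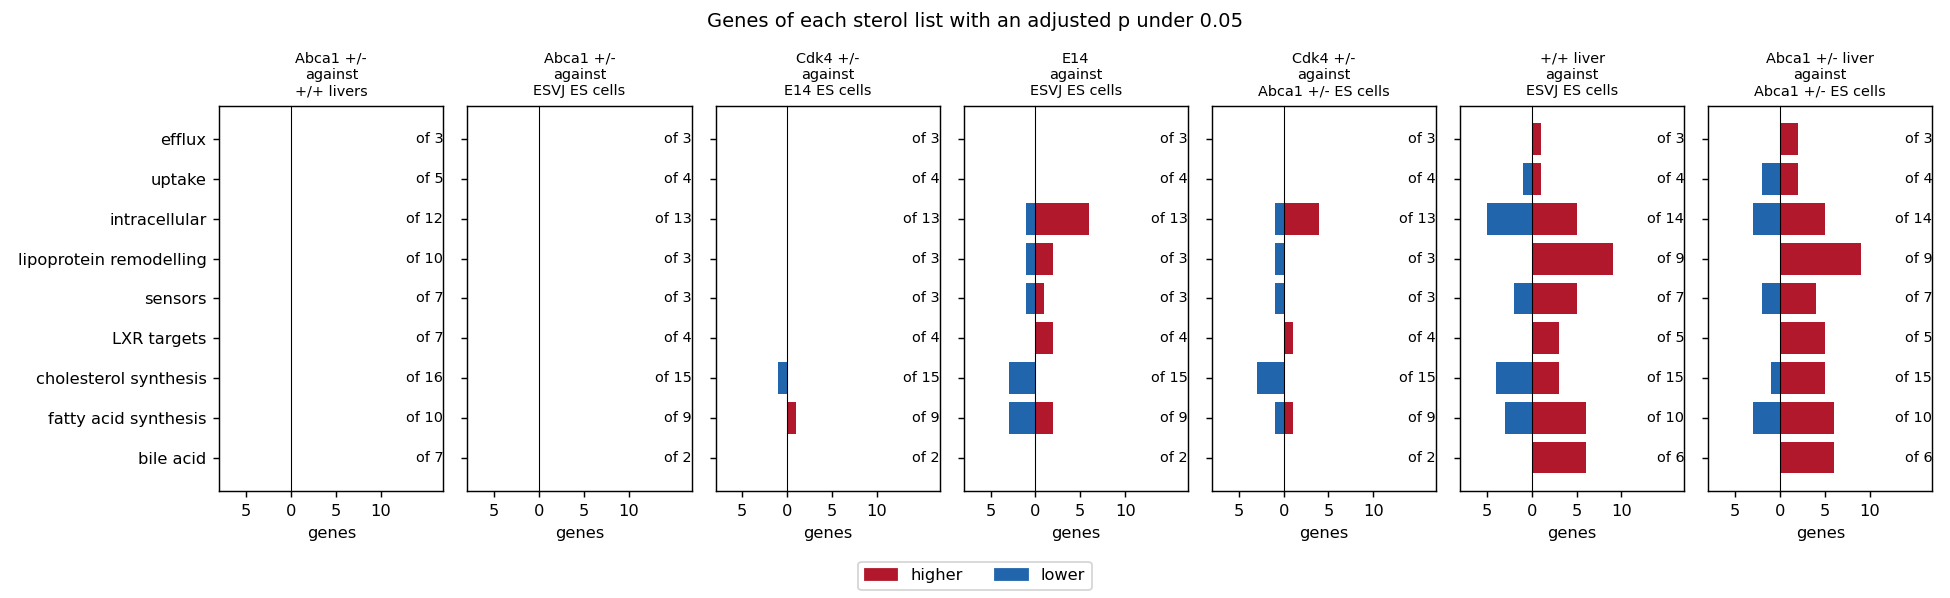
Number of genes of each sterol list that passed, higher to the right in red and lower to the left in blue, in 7 comparisons; the number at the right of each bar is how many genes of the list were tested. No bar is drawn for the Abca1 comparisons in liver and in ES cells, and the tissue comparisons at the right have the most.

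The tissues were compared within each genotype. In +/+ livers against ESVJ cells, 3 of 7 probe sets were higher and 1 lower, beside 67.4% of all 7883 passing, 23.5% higher and 43.9% lower. The groups did not overlap for 6 of 7, beside 79.8% of all. Scarb1 was 7.14-fold as high in +/+ livers (95% interval 5.29 to 9.63, limma adjusted p = 6.27e-08), Srebf1 2.27-fold (1.56 to 3.30, 9.51e-04) and Abca1 94354_at 2.03-fold (1.3998 to 2.95, 0.00261). Pltp was lower, at 0.526-fold of the ESVJ level (0.384 to 0.720, 0.00159). Abca1 97198_at at 1.68-fold, Npc1 at 1.24-fold and Osbp at 1.01-fold did not pass. The median of all probe sets was -0.38 on the log2 scale, and 34.9% of the calls were higher. With quantile normalization the median was -0.07, 46.2% of the calls were higher, and Npc1 also passed at 0.75 (adjusted p = 0.00318).

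In Abca1 +/- livers against Abca1 +/- ES cells, 4 of 7 were higher and 0 lower, beside 64.8% of all passing, 24.4% higher and 40.5% lower. The groups did not overlap for 5 of 7, beside 74% of all. Scarb1 was 8.78-fold as high in the livers (95% interval 6.51 to 11.8, limma adjusted p = 2.69e-08), Srebf1 5.82-fold (4.01 to 8.46, 1.47e-06), Abca1 94354_at 4.62-fold (3.18 to 6.70, 5.06e-06) and Npc1 3.08-fold (2.34 to 4.05, 5.40e-06). Without replicate 1 of these livers they were 8.54-fold, 4.20-fold, 4.14-fold and 2.87-fold as high, in the same order, and 4 of 7 passed again. Osbp at 1.49-fold did not pass (adjusted p = 0.0569), and it passed with quantile normalization (adjusted p = 0.00648) and with all 16 arrays in 1 fit (0.0305). Pltp at 1.04-fold and Abca1 97198_at at 0.946-fold did not pass. Without replicate 1 Osbp was 1.21-fold, Pltp 0.887-fold and Abca1 97198_at 1.53-fold as high, and none of these passed.

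Lipoprotein remodelling and bile acid synthesis were the 2 lists of which every tested gene was higher in liver in both comparisons. These were 9 and 6 genes, with list medians of 5.93 and 5.14 in +/+ livers against ESVJ cells. Of all probe sets 23.5% were higher there, and 24.4% in Abca1 +/- livers against Abca1 +/- ES cells. The filter used the mean over ES and liver arrays together, so genes dim in ES cells were tested through their liver signal. In the fit of the 4 ES groups 3 and 2 genes of these lists were tested. That every tested gene was higher in liver was thus partly set by the filter. The other lists were mixed in +/+ livers against ESVJ cells, where 23.5% of all probe sets were higher and 43.9% lower. Of 14 intracellular genes 5 were higher and 5 lower, and of 15 cholesterol synthesis genes 3 were higher and 4 lower. Of 10 fatty acid synthesis genes 6 were higher and 3 lower, and of 7 sensors 5 were higher and 2 lower. Of the uptake genes 1 of 4 was higher and 1 lower, and 1 of 3 efflux transporters and 3 of 5 LXR targets were higher with none lower. Apoa1, the apolipoprotein that accepts the lipid Abca1 exports, averaged 43913 ± 10779 in +/+ livers (SD, n = 2) and 20.9 ± 4.49 in ESVJ cells (SD, n = 3). Scp2, a sterol carrier protein, averaged 13347 ± 1955 in +/+ livers and 358 ± 156 in ESVJ cells, and Lipa, lysosomal acid lipase, 819 ± 80.4 in +/+ livers and 45.0 ± 35.6 in ESVJ cells. Nr1h3 averaged 3482 ± 652 in +/+ livers and 30.6 ± 32.2 in ESVJ cells. Some relatives went the other way: Vapa, the membrane anchor that Osbp binds at the endoplasmic reticulum, was 0.344-fold as high in +/+ livers as in ESVJ cells, and the endocytic receptor Lrp2 0.181-fold. Each of these genes kept its call without each array and under each other setting.

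The probe sets most like Abca1 94354_at over the 16 arrays were 2 of Nrp1, a co-receptor of semaphorins and vascular growth factors (Pearson correlations 0.968 and 0.955), and Cebpb, a transcription factor (0.955), among 7084 single-gene probe sets. Of the other genes studied here, Srebf1 had a correlation of 0.870, Scarb1 0.793, Npc1 0.757, Osbp 0.620 and Pltp -0.016. Over the 12 ES arrays alone the most alike were Arsa (0.974), a lysosomal sulfatase, Pstpip1 (0.963) and Zkscan3 (0.956), among 6650. There Srebf1 had a correlation of 0.654, Scarb1 0.618, Pltp 0.601, Osbp 0.566 and Npc1 0.147, and Abca1 97198_at -0.278. These are descriptions with no test, since arrays of 1 group share their line or tissue and the order of the group means dominates them.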

How the data were processed

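Total RNA of 16 samples was hybridised to Affymetrix mouse U74Av2 arrays, 1 per sample, and per the labels the authors processed them with MAS5.0 at default settings. The deposited values are linear signal intensities per probe set, with a 2% trimmed mean of 1500.8 to 1501.6 per array. Precision is limited by the number of arrays, with a median SE per probe set (log2) of 0.17 for ES cells and 0.38 for liver.

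Here signals were rescaled to a trimmed mean of 500, 32 was added and log2 taken. Control probe sets were left out, as were those whose mean signal across a fit's arrays was under 100, and the rest were tested with limma 3.58.1 in R 4.3.3 (empirical Bayes with an intensity trend). The 4 ES groups, the livers, and the Abca1 +/- and ESVJ cells with both liver groups were each fitted together. P-values were adjusted over all probe sets, and the code was tested on simulated data. The alternatives were pseudocounts of 1 and 100, no filter or one of 200, the scale as deposited, quantile normalization, no trend, other sets of arrays and leaving out each array; a block for the hybridisation control signal was chosen after the data were seen.

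Groups came from the sample source labels. Named are the 7 probe sets, up to 4 genes with the smallest unadjusted p per list and comparison, and the genes most like Abca1; Krt19 was picked after its values were seen. The genes and lists were chosen with earlier results of these data known. Of 12488 probe sets, 10855 have 1 gene symbol in the annotation of the array, 396 have several and 1237 none. The table holds no detection calls, so whether a dim probe set is above background is not known.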

Additional observations from a re-analysis of the deposited data

Results flagged for a closer look

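The difference of the Abca1 effect between liver and ES cells passed the test for Npc1, at 1.31 on the log2 scale: the Abca1 +/- livers lay above the +/+ livers and the ES groups overlapped. Its call was lost without any of 7 of the 10 arrays (adjusted p up to 0.0888 by limma) and with quantile normalization (0.0760). The same difference passed for Apob, at 2.69, and its call was lost without replicate 3 of Abca1 +/- ES or replicate 3 of ESVJ (adjusted p up to 0.0582 by limma). Apob was tested through its liver signal, since it fell below the filter in the fit of the ES groups. Of the 7883 probe sets tested 2.38% passed in this comparison. Both values were 1.21 and 2.55 without replicate 1 of the Abca1 +/- livers, the array with the high 3′ to 5′ ratios of the RNA controls.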

How the results depend on the processing

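No paired analysis was possible because the labels give no pairing. The replicate numbers used here follow the order of the samples within each group. Counts of probe sets that passed moved as follows; unless said, the cause was not tested. For Abca1 +/- against ESVJ cells, 2 of all probe sets became 1 with no filter, with a filter at 200, with only the groups compared, with a block for the hybridisation control and without each array in turn, and 0 with all 16 arrays in 1 fit. For the livers, 1 became 2 on the deposited scale, 3 with no filter, 0 with quantile normalization or no trend, 1970 with all 16 arrays and 400 with the block, and 9 to 1653 without 1 array; the 0 members became 4 with all 16 arrays, 1 with the block (Npc1, adjusted p = 0.0419 by limma) and 0 to 5 without 1 array. For Cdk4 +/- against E14, 361 became 196 with no filter, 227 with no trend, 35 with all 16 arrays, 174 with only the groups compared and 68 (without Cdk4 +/- replicate 1) to 521 (without E14 replicate 3) without 1 array. There 0 members became 1 on the deposited scale and with no filter, which let Abca1 97198_at be tested, and 0 to 1 without 1 array. For Cdk4 +/- against Abca1 +/- cells, 2 members became 1 with a filter at 200 or all 16 arrays, and 1 to 3 without 1 array. The filter at 200 left Abca1 94354_at untested. For the effect in liver against ES cells, 188 became 55 with quantile normalization, 75 with no filter, 773 with all 16 arrays and 0 (without ESVJ replicate 3) to 2007 (without Abca1 +/- liver replicate 2) without 1 array, and the 1 member became 0 with quantile normalization, 4 with all 16 arrays and 0 to 5 without 1 array.

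Small differences that did not pass changed sign when 1 array was left out. On the log2 scale Scarb1 ranged over -0.14 to 0.082 for Abca1 +/- against ESVJ, Npc1 over -0.11 to 0.018 and Osbp over -0.051 to 0.15 for E14 against ESVJ, and Osbp over -0.31 to 0.33 for +/+ liver against ESVJ. For Abca1 +/- liver against Abca1 +/- ES cells, Pltp ranged over -0.17 to 0.28 and Abca1 97198_at over -0.77 to 0.61, and 97198_at was 7.55e-04 with the block. No called member difference changed sign under any setting.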
